A study of Homo sapiens with 28 samples.

Results

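The 35 genes described here are targets of the transcription factor NRF2 that serve antioxidant defence and detoxification, and they are given together with NFE2L2, which encodes NRF2, and KEAP1, which encodes its repressor. They were taken as a fixed list of 37 symbols, not by a cut on any measured value. The list was nonetheless chosen with earlier results of these data known. All 37 were found among the 60483 Ensembl genes of the count table. RNA was sequenced from 2 human lung adenocarcinoma cell lines, A549 with 13 libraries and H1944 with 15, both carrying the MGT#1-mVenus fluorescent reporter. The treatments lasted 11 days: TGF-β1 (5 ng/ml) is a growth factor known to drive epithelial-mesenchymal transition, and GSK126 (5 µM) blocks EZH2, the enzyme that methylates histone H3 in Polycomb repression. Treated cells were sorted into gates of high and low mVenus. A549 had 3 TGF-β1 high, 2 TGF-β1 low, 2 GSK126 high, 3 GSK126 low and 3 naive libraries, and H1944 had 3 in each of the same groups. The count table held no replicate B of the A549 TGF-β1 low gate and no replicate C of the A549 GSK126 high gate. The naive cells carried the reporter, received neither agent and were not sorted, so treatment and sorting cannot be told apart in any comparison with them. Whether each reporter line is 1 clone or a pool is not given in the sources used here. Nothing in the labels says that libraries of a group came from separate cultures, so p-values measure the spread between libraries, which may be technical.

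NRF2 binds antioxidant response elements in promoters and enhancers as a partner of small MAF proteins and raises transcription of enzymes that reduce quinones and peroxides, make and recycle glutathione, supply NADPH and export conjugates. KEAP1 is the adaptor through which a CUL3 ubiquitin ligase marks NRF2 for degradation, and oxidants or electrophiles that modify KEAP1 let NRF2 accumulate. NRF2 is thus controlled largely at the protein level, and its own transcript need not follow its activity. Lung adenocarcinomas often carry lesions that hold the pathway on, and A549 is known for an inactivating KEAP1 mutation.

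The core of the element was searched for in promoter sequence. RefSeq windows (GRCh38.p14) of 250 bases before to 50 bases after the transcription start were at hand for 27 of the 37 genes, and each was searched on both strands for the core, TGAC followed by any 3 letters and GC. That core contains the AP-1 site TGACTCA where it reads TGACTCAGC, as in ME1. The core was present in 10 of these 27 genes (37.0%), beside 16.1% of all 27305 genes with a window, and in 32.4% of the listed genes' 34 windows beside 13.4% of all 35116 windows. A match is a string of letters, not a shown binding site. The stretches below, 1 for each gene, are from members described in the following paragraphs, while further cores in ME1, KEAP1 and TXNRD1 and that of PIR, which lies after the start site, are not printed. They are written 5′ to 3′ on the strand of the gene, with the core or its reverse complement in capitals.
GPX2, chr14:64942839-64942887, minus strand: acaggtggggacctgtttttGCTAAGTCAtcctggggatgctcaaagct
CYP4F11, chr19:15934995-15935043, minus strand: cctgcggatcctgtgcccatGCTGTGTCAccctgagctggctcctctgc
PGD, chr1:10398843-10398891, plus strand: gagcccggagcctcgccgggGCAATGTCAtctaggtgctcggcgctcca
EPHX1, chr1:225825256-225825304, plus strand: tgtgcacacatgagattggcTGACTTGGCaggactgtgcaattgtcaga
CBR1, chr21:36069845-36069893, plus strand: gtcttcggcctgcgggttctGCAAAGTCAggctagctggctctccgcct
GCLM, chr1:93909436-93909484, minus strand: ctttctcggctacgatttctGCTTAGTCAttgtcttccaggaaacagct
TXNRD1, chr12:104286910-104286958, plus strand: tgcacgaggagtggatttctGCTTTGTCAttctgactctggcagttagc
ME1, chr6:83431160-83431208, minus strand: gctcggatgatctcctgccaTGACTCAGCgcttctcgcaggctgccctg
KEAP1, chr19:10502774-10502822, minus strand: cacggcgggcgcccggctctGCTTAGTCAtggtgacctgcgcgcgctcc
The core begins 122 bases before the start site in GPX2, 156 in CYP4F11, 201 in PGD, 78 in EPHX1, 159 in CBR1, 34 in GCLM, 102 in the second window of TXNRD1, 137 in ME1 and 31 in KEAP1. In GCLM and KEAP1 it is the same 9 letters, GCTTAGTCA. Genes with a core included GPX2, which fell most under TGF-β1 in both lines. CYP4F11, another, ranked 2 by size of TGF-β1 change in A549 and 7 in H1944. A core was also found in a member that did not pass against naive cells in either line (ME1) and in the repressor itself.

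Total counts ran from 2013449 to 9550143 per library in A549 and from 1660148 to 13280592 in H1944. All 5 epithelial markers reached 1 CPM in each A549 group and in naive and GSK126 H1944, and 4 of 5 did in the H1944 TGF-β1 gates, where KRT19 had no count in the low gate, while blood markers together stayed at or below 18.8 CPM (the count scaled to a library's total). Epithelial markers summed to 2061 to 3162 CPM in A549 TGF-β1 libraries against 10250 to 10690 CPM in naive A549, and to 1443 to 1672 CPM in H1944 TGF-β1 libraries against 4865 to 5487 CPM in naive H1944. GSK126 libraries held 4665 to 6397 CPM of them in A549 and 4879 to 7521 CPM in H1944. Summed mesenchymal markers stood at 3404 to 4710 CPM in TGF-β1, 2459 to 3084 CPM in GSK126 and 1304 to 1321 CPM in naive A549 libraries. In H1944 they stood at 8556 to 10900 CPM in TGF-β1, 592 to 1022 CPM in GSK126 and 187.5 to 210.9 CPM in naive libraries. Fibroblast markers summed to 201 to 498 CPM in TGF-β1, 33.6 to 50.5 CPM in GSK126 and 1.59 to 25.7 CPM in naive A549 libraries, and to 3364 to 4403 CPM in TGF-β1, 37.3 to 95.8 CPM in GSK126 and 9.34 to 13.5 CPM in naive H1944 libraries. The part of these shifts in the results below was not tested. The A549 libraries TGF-β1 high B and naive A carried the most reads over silent olfactory receptor genes, 323 and 206 CPM, against 3.62 to 127.5 CPM elsewhere. In bulk RNA, fewer cells that express a gene and less RNA per cell cannot be told apart.

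Most NRF2 targets fell under TGF-β1 in both lines. In A549, 28 of 34 targets tested fell and 1 rose in TGF-β1 cells relative to naive cells, where 11.4% of all genes tested fell and 7.67% rose (edgeR's quasi-likelihood test, Benjamini-Hochberg adjusted p under 0.05, here as throughout). In H1944, 27 of 35 targets fell and 5 rose, where 31.6% of all genes fell and 32.1% rose. The median log2 fold change of the targets was -1.503 in A549 and -1.01 in H1944, beside 0.05 and -0.01 over all genes tested. Together the 37 genes took 1.06 ± 0.125% of all counts in TGF-β1 A549 cells (SD, n = 5) against 3.15 ± 0.255% in naive A549 cells (n = 3), and 1.499 ± 0.0355% in TGF-β1 H1944 cells (n = 6) against 3.08 ± 0.176% in naive H1944 cells (n = 3). No TGF-β1 library overlapped a naive one in this share. GSTA1 was too scarce to be tested in A549. The common coefficient of variation between libraries of a group was 0.358 in the A549 fit and 0.098 in the H1944 fit. A change of a given size therefore passed less readily in A549, here and in all counts below.

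**Figure D1:**
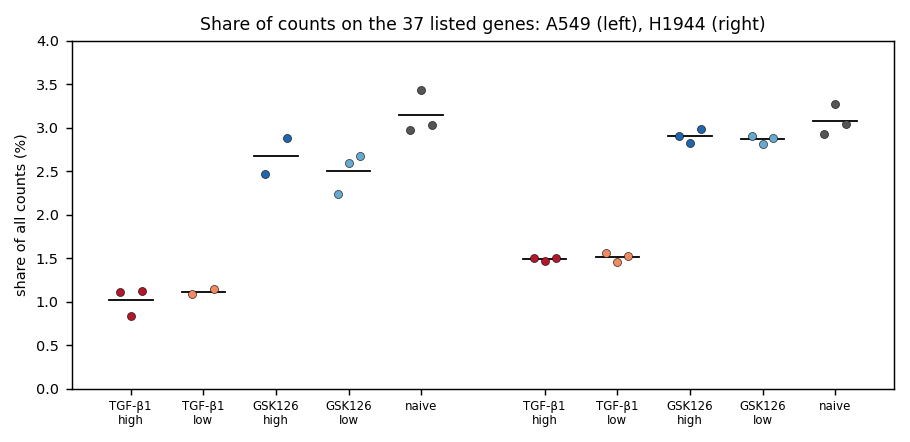
Share of all counts in a library that fell on the 37 listed genes, in percent, by line, treatment and reporter gate (points are libraries, lines are group means). TGF-β1 libraries lie between 0.838% and 1.55%, and GSK126 and naive libraries of both lines lie at or above 2.24%.

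Fewer of them passed under GSK126, with smaller median changes. In A549, 7 of 34 targets fell and 1 rose in GSK126 cells relative to naive cells, where 3.2% of all genes fell and 3.57% rose, and the targets' median log2 fold change was -0.24 beside -0.16 over all genes. That count rests on single libraries: it ran from 3 to 11 listed genes as each A549 library was left out, the lowest without GSK126 high A. It was 14 with DESeq2, and 15 without the 2 libraries rich in background reads. In H1944, 16 of 35 targets fell and 7 rose, where 18.7% of all genes fell and 21.5% rose, with medians of -0.15 for the targets and 0.00 over all genes. The 37 genes took 2.57 ± 0.241% of counts in GSK126 A549 cells (SD, n = 5) and 2.89 ± 0.0616% in GSK126 H1944 cells (n = 6), beside the naive shares above. By role, 3 of 8 quinone and carbonyl reductases fell under GSK126 in A549, while in H1944 4 of them fell and 2 rose. Of the glutathione genes 1 fell in A549, while in H1944 2 fell and 3 rose. The TGF-β1 and GSK126 comparisons of a line share its 3 naive libraries.

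**Figure D2:**
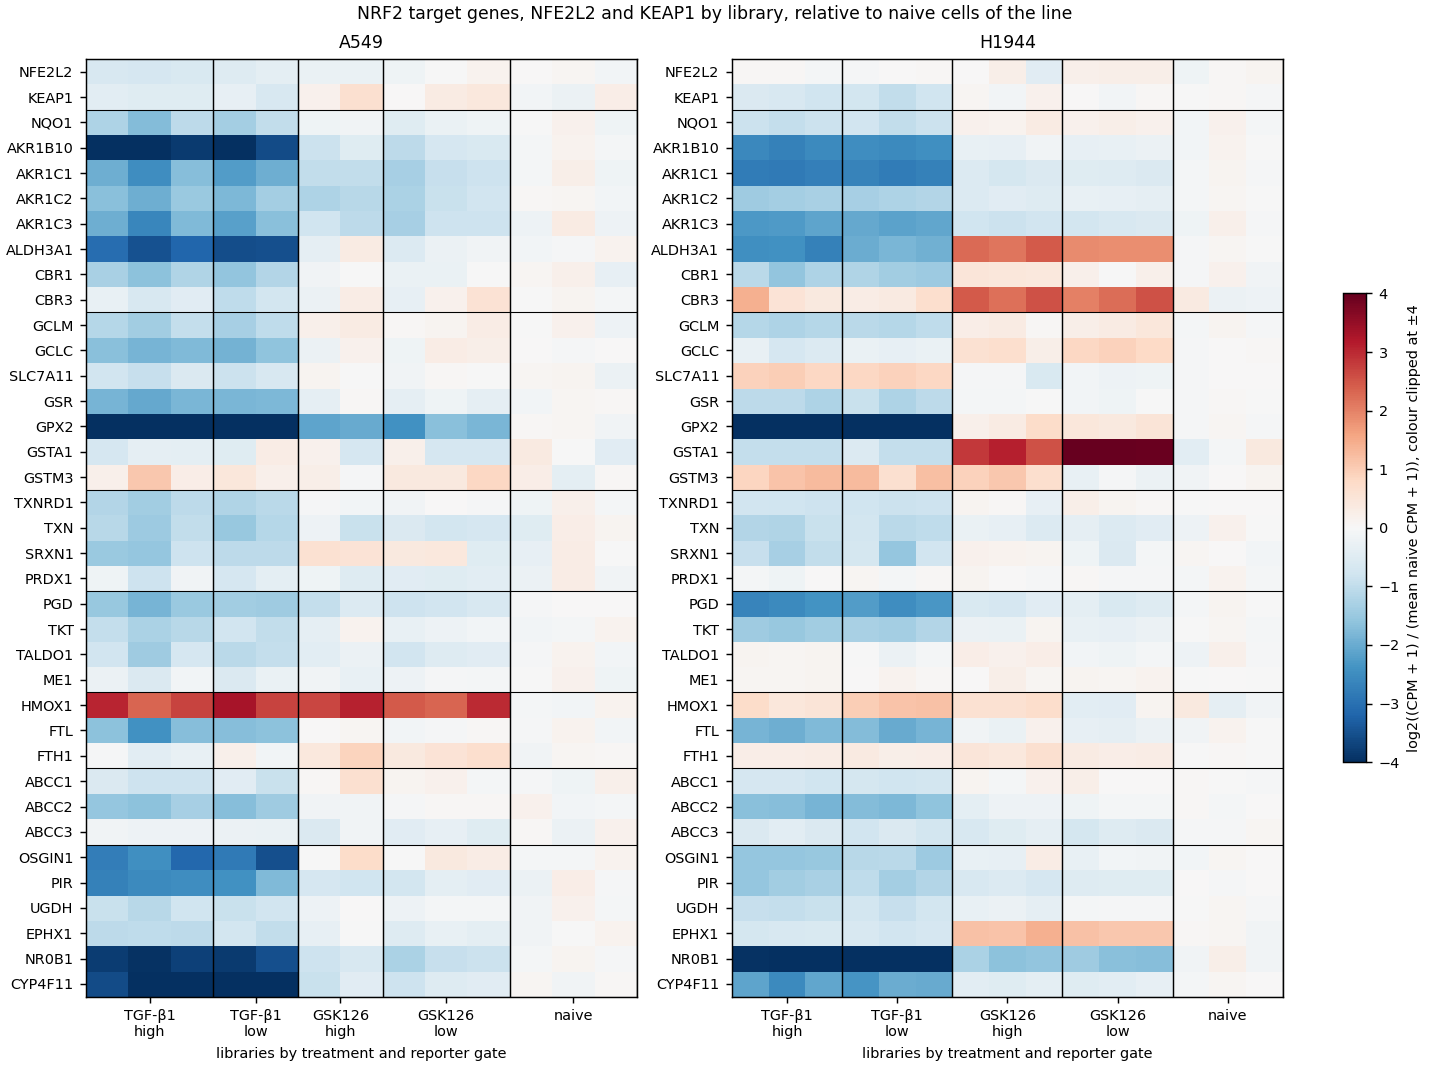
Level of each of the 37 genes in each library relative to the mean of the naive libraries of its line, as log2((CPM + 1) / (mean naive CPM + 1)), rows ordered by role. Most rows are blue in TGF-β1 columns of both lines, with HMOX1 red in A549 under both agents and ALDH3A1, CBR3, GSTA1 and EPHX1 red in H1944 under GSK126.

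Of the pathway's own switch, NFE2L2 transcripts fell under TGF-β1 in A549 and KEAP1 transcripts in both lines. NFE2L2 (chromosome 2, 177227595 to 177392697, minus strand, GRCh38) had 71.9, 71.8, 74.7, 78.8 and 86.4 CPM in the 5 A549 TGF-β1 libraries, 94.7, 94.4, 102, 113 and 125 CPM in the 5 GSK126 libraries, and 116, 121 and 105 CPM in the 3 naive libraries. All TGF-β1 libraries lay below all naive ones, and GSK126 libraries overlapped naive ones. The log2 fold change was -0.73 ± 0.18 (SE, adjusted p = 0.00812) under TGF-β1 and -0.22 ± 0.19 (SE, adjusted p = 0.603) under GSK126, and without naive B the TGF-β1 value no longer passed (-0.56, adjusted p = 0.06). In H1944, NFE2L2 stood at 159 to 174 CPM (median 171) in the 6 TGF-β1 libraries, 122 to 198 CPM (median 194) in the 6 GSK126 libraries and 148, 171 and 180.4 CPM in naive ones. These ranges overlapped, and neither contrast passed (log2 fold change 0.07 ± 0.10 (SE, adjusted p = 0.556) with TGF-β1 and -0.02 ± 0.10 (SE, adjusted p = 0.881) with GSK126). Another gene on the same strand, AC019080.1, covers 17.6% of the exonic bases of NFE2L2.

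KEAP1 (chromosome 19, 10486120 to 10503741, minus strand) fell under TGF-β1 in both lines. It had 37.0, 35.7, 35.2, 40.0 and 31.8 CPM in A549 TGF-β1 libraries, 56.1, 77.8, 50.6, 63.6 and 66.9 CPM in GSK126 libraries, and 46.5, 42.5 and 60.8 CPM in naive A549. In H1944 it had 53.6 to 71.1 CPM (median 62.6) under TGF-β1, 99.5 to 119.9 CPM (median 109.7) under GSK126, and 106, 112 and 104 CPM in naive cells. TGF-β1 libraries lay wholly below naive ones in both lines, and GSK126 libraries overlapped them. Under TGF-β1 the log2 fold change was -0.65 ± 0.21 (SE, adjusted p = 0.0364) in A549, lost in 5 of the 13 fits that left out a library, and -0.69 ± 0.09 (SE, adjusted p = 1.16e-07) in H1944. The weakest A549 value came without naive C (-0.44, adjusted p = 0.234). Under GSK126 it was 0.27 ± 0.21 (SE, adjusted p = 0.571) in A549 and -0.10 ± 0.09 (SE, adjusted p = 0.428) in H1944.

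Among the 8 quinone and carbonyl reductases, all 8 fell under TGF-β1 in A549 and 7 in H1944. AKR1B10, an aldo-keto reductase of retinal and lipid aldehydes, had 407, 286, 450.5, 405 and 539 CPM in A549 TGF-β1 libraries and 3532, 4645, 3124, 4106 and 4240 CPM in GSK126 libraries, against 6193, 7149 and 6073 CPM in naive A549. Both treatments lay below every naive library, TGF-β1 by far more. The log2 fold change was -4.10 ± 0.27 (SE, adjusted p = 3.5e-09) under TGF-β1, and -0.80 ± 0.25 (SE, adjusted p = 0.0693) under GSK126, which did not pass. H1944 cells had 578 to 689 CPM (median 642) under TGF-β1 and 2965 to 3389 CPM (median 3046) under GSK126, against 3443, 4098 and 3722 CPM in naive cells. It fell under both agents there, at -2.48 ± 0.07 (adjusted p = 1.46e-25) and -0.39 ± 0.07 on the log2 scale (adjusted p = 1.93e-05). Its near-identical neighbour AKR1B15 shares 94.3% of coding bases, so some reads may have been assigned to either.

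AKR1C1, AKR1C2 and AKR1C3, reductases of steroids and prostaglandins, fell under both agents in both lines. AKR1C1 had 218, 152, 260.3, 182 and 220 CPM in A549 TGF-β1 libraries and 428, 433, 342, 450 and 481 CPM in GSK126 libraries, against 810, 994 and 755 CPM in naive A549. The 3 arms formed 3 separate bands, lowest under TGF-β1. In H1944 the bands were 236 to 266 CPM (median 248) under TGF-β1, 1041 to 1201 CPM (median 1130) under GSK126, and 1586, 1829 and 1629 CPM in naive cells. Its log2 fold changes under TGF-β1 were -2.22 ± 0.25 (SE, adjusted p = 2.89e-06) in A549 and -2.68 ± 0.07 (SE, adjusted p = 4.8e-26) in H1944, and under GSK126 -1.09 ± 0.25 (SE, adjusted p = 0.0109) and -0.69 ± 0.07 (SE, adjusted p = 7.53e-10).

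AKR1C2 had 332, 273, 380.1, 303 and 411 CPM in A549 TGF-β1 libraries and 446, 492, 443, 566 and 622 CPM in GSK126 libraries, against 1081, 1113 and 977 CPM in naive A549. The H1944 levels were 324 to 380.1 CPM (median 348) under TGF-β1 and 596 to 696 CPM (median 655) under GSK126, against 819, 911 and 859.7 CPM in naive cells. No treated library reached a naive one in either line. The log2 fold changes were -1.79 ± 0.23 (SE, adjusted p = 1.04e-05) with TGF-β1 and -1.14 ± 0.23 (SE, adjusted p = 0.00341) with GSK126 in A549, and -1.23 ± 0.07 (SE, adjusted p = 3.41e-17) and -0.53 ± 0.07 (SE, adjusted p = 8.81e-08) in H1944. AKR1C3 gave 519.6, 325, 587, 442 and 632 CPM in A549 TGF-β1 libraries, 1154, 965, 805, 1126 and 1125 CPM in GSK126 libraries, and 1754, 2537 and 1739 CPM in naive A549. Its H1944 bands were 273 to 323 CPM (median 307) under TGF-β1, 735 to 890.4 CPM (median 794) under GSK126, and 1203, 1532 and 1293 CPM in naive cells, again without overlap. The changes were -2.17 ± 0.28 (SE, adjusted p = 1.44e-05) and -1.06 ± 0.28 (SE, adjusted p = 0.027) in A549, and -2.09 ± 0.08 (SE, adjusted p = 2.99e-22) and -0.85 ± 0.08 (SE, adjusted p = 3.19e-11) in H1944, TGF-β1 first in each pair. The coding sequences of AKR1C1 and AKR1C2 are 98.0% identical and share a run of 186 bases, so their separate values are uncertain. In A549 under GSK126, these calls were lost in 3 (AKR1C1), 1 (AKR1C2) and 5 (AKR1C3) of the 13 leave-one-out fits. The weakest of these values for AKR1C3 was -0.72. Leaving out GSK126 high A, which leaves 1 library in that gate, gave -1.13 for AKR1C1, -1.15 for AKR1C2 and -1.18 for AKR1C3.

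ALDH3A1, an aldehyde dehydrogenase, went opposite ways under the 2 agents in H1944. It had 7.07 to 13.8 CPM (median 10.5) in H1944 TGF-β1 libraries and 189.5 to 285 CPM (median 211) in GSK126 libraries, against 49.2, 54.5 and 50.2 CPM in naive H1944. The 3 arms did not overlap. It fell under TGF-β1, with a log2 fold change of -2.25 ± 0.12 (SE, adjusted p = 3.37e-17), and rose under GSK126, with 1.99 ± 0.10 (SE, adjusted p = 5.93e-18). In A549 it stood at 287, 209, 261, 202 and 205 CPM under TGF-β1 and 1824, 2948, 1627, 2010 and 2146 CPM under GSK126, against 2209, 2300 and 2583 CPM in naive A549. TGF-β1 libraries were far below naive ones and GSK126 libraries overlapped them, with changes of -3.55 ± 0.25 (SE, adjusted p = 8.46e-09) and -0.22 ± 0.24 (SE, adjusted p = 0.694). The difference between the lines in the GSK126 effect was 2.17 ± 0.23 (SE, H1944 minus A549, adjusted p = 7.03e-08).

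CBR3, a carbonyl reductase, rose under both agents in H1944. It had 3.97 to 9.97 CPM (median 4.66) in H1944 TGF-β1 libraries and 15.6 to 23.1 CPM (median 19.9) in GSK126 libraries, against 4.20, 2.50 and 2.56 CPM in naive H1944. TGF-β1 and naive libraries overlapped, and GSK126 libraries lay above both. The log2 fold change was 0.98 ± 0.31 (SE, adjusted p = 0.00648) under TGF-β1, which did not pass without naive C (0.74, adjusted p = 0.123), and 2.67 ± 0.26 (SE, adjusted p = 2.85e-10) under GSK126. In A549 it stood at 9.65, 7.54, 8.69, 5.60 and 7.02 CPM under TGF-β1 and 10.3, 15.4, 9.62, 13.9 and 18.6 CPM under GSK126, against 12.03, 13.2 and 11.4 CPM in naive A549. It fell there under TGF-β1, at -0.90 ± 0.27 on the log2 scale (adjusted p = 0.025), a call lost in 4 of 13 leave-one-out fits. CBR3-AS1 on the opposite strand overlaps 42.2% of its exonic bases. NQO1, the quinone reductase most used as a readout of NRF2, fell under TGF-β1, with log2 fold changes of -1.40 ± 0.24 in A549 and -0.81 ± 0.07 in H1944 (adjusted p = 0.000299 and 1.46e-11). CBR1, whose promoter stretch is printed above, fell, with log2 fold changes of -1.54 ± 0.22 and -1.25 ± 0.10 (adjusted p = 3.49e-05 and 1.61e-12). Neither NQO1 nor CBR1 passed under GSK126 in either line.

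**Figure D3:**
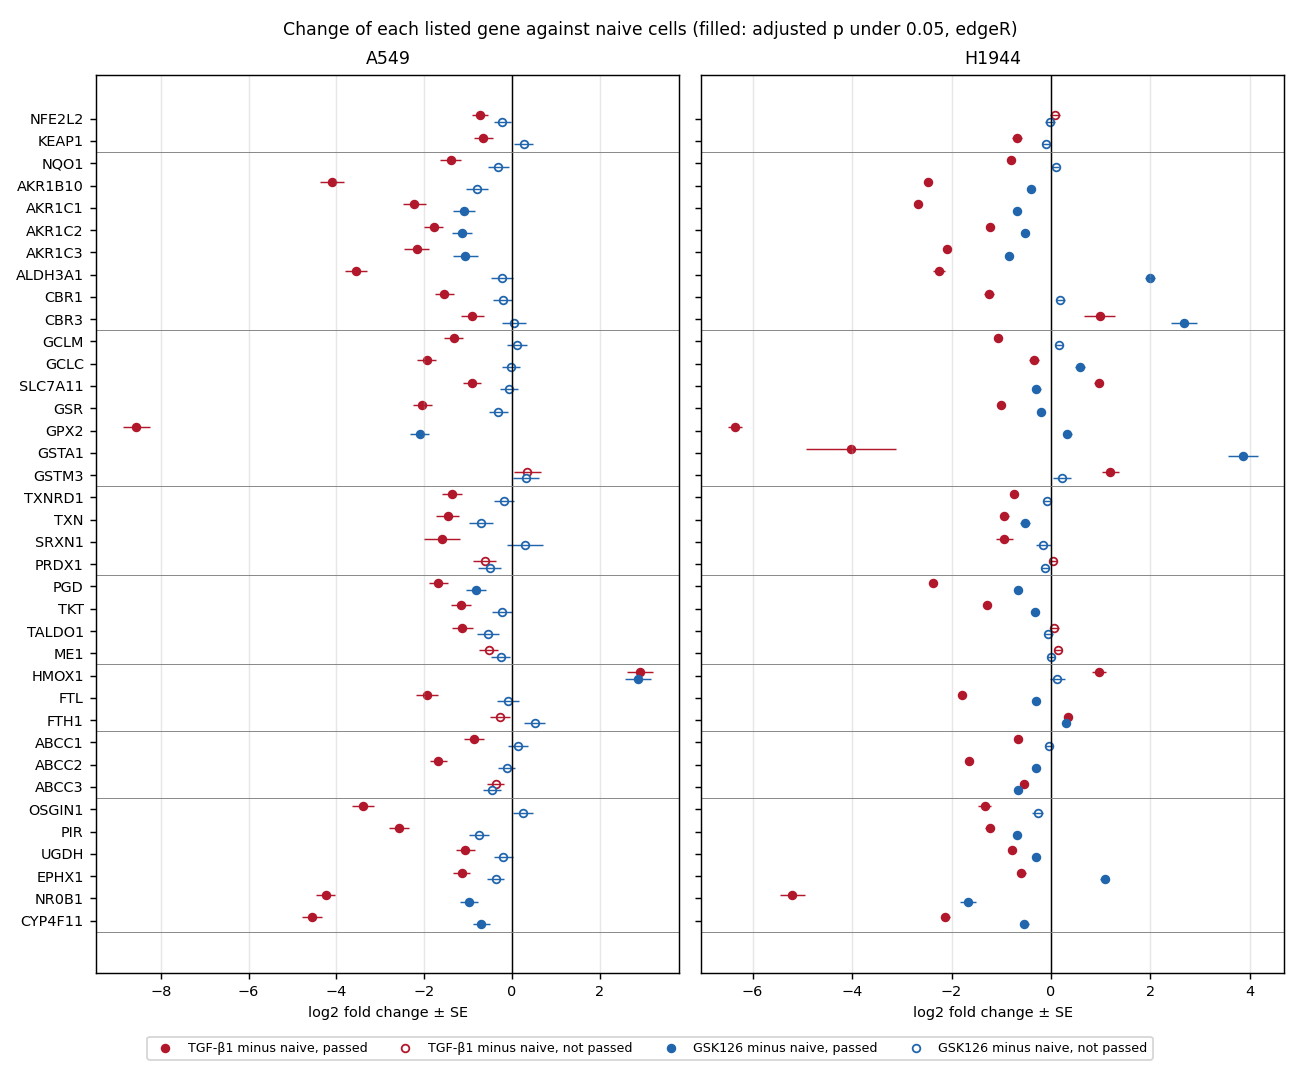
Log2 fold change ± SE of each listed gene against naive cells in A549 (left) and H1944 (right), under TGF-β1 (red) and GSK126 (blue); filled points passed an adjusted p of 0.05. GPX2 lies lowest under TGF-β1 in both lines, at -8.56 in A549 and -6.36 in H1944, and the H1944 GSK126 points are highest for GSTA1, CBR3 and ALDH3A1.

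Of the 7 glutathione genes, 5 of 6 tested fell in A549 under TGF-β1, and in H1944 5 fell and 2 rose. GPX2 (chromosome 14, 64939152 to 64942905, minus strand), a glutathione peroxidase of epithelia, showed the largest change of all listed genes in both lines. It had 1.33, 1.33, 0.524, 1.17 and 1.87 CPM in A549 TGF-β1 libraries and 91.2, 97.2, 73.0, 125 and 111 CPM in GSK126 libraries, against 411, 425 and 359.8 CPM in naive A549. The arms were separate, with 36 counts in all in the 5 TGF-β1 libraries against 8133 in the 3 naive ones. The log2 fold change was -8.56 ± 0.31 (SE, adjusted p = 6.8e-12) under TGF-β1 and -2.10 ± 0.22 (SE, adjusted p = 5.15e-06) under GSK126. Its levels in H1944 were 3.14 to 8.25 CPM (median 4.26) under TGF-β1 and 469 to 671 CPM (median 538) under GSK126, against 390.5, 426 and 395 CPM in naive cells. TGF-β1 libraries lay far below and GSK126 libraries above every naive one, with changes of -6.36 ± 0.14 (SE, adjusted p = 2.38e-28) and 0.32 ± 0.09 (SE, adjusted p = 0.00517). The H1944 rise under GSK126 was lost with all 28 libraries in 1 fit (0.28, adjusted p = 0.246). The GSK126 effect on GPX2 differed between the lines by 2.39 ± 0.23 (SE, H1944 minus A549, adjusted p = 8.9e-09).

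GSTA1, a glutathione transferase, rose under GSK126 in H1944. It had 12.8, 15.6, 10.1, 30.9, 30.4 and 28.5 CPM in the 6 GSK126 libraries, high gate first, against 0.42, 0.832 and 1.51 CPM in naive H1944, without overlap. The log2 fold change was 3.85 ± 0.30 (SE, adjusted p = 5e-12). The 6 TGF-β1 libraries held 1 count against 23 in the naive ones, a ratio of 0.0536 in CPM (exact 95% interval 0.0013 to 0.33, counting error only). Of the 23 counts, 20 were in naive C, the deepest H1944 library with 13280592 counts in all. In A549 it had 10 counts in 5 TGF-β1, 6 in 5 GSK126 and 12 in 3 naive libraries. GSTA2, 96.7% identical to it in coding sequence, had 5 counts in the H1944 GSK126 libraries against 443 for GSTA1. GSTM3, another transferase, stood at 18.1 to 28.1 CPM (median 26.2) in H1944 TGF-β1 libraries against 10.1, 11.2 and 12.1 CPM in naive H1944, a rise of 1.19 ± 0.17 (SE, adjusted p = 3.83e-07) on the log2 scale.

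SLC7A11, the cystine importer that feeds glutathione synthesis, moved in opposite directions in the lines. It had 227, 200.2, 256, 209 and 248 CPM in A549 TGF-β1 libraries, against 409, 418 and 326 CPM in naive A549, and 1577 to 1759 CPM (median 1636) in H1944 TGF-β1 libraries, against 867, 902 and 899.8 CPM in naive H1944. All TGF-β1 libraries lay below the naive ones in A549 and above them in H1944. The log2 fold change was -0.91 ± 0.21 (SE, adjusted p = 0.00358) in A549 and 0.96 ± 0.09 (SE, adjusted p = 4.65e-11) in H1944, a difference of 1.72 ± 0.22 (SE, adjusted p = 3.38e-07). The A549 call was lost without the filter on low counts (-0.91, adjusted p = 0.0559) and in a fit of the compared groups alone (-0.83, adjusted p = 0.0567). Under GSK126 it was -0.07 ± 0.21 (SE, adjusted p = 0.898) in A549 and -0.30 ± 0.09 (SE, adjusted p = 0.00682) in H1944, where it was lost with all 28 libraries in 1 fit (-0.33, adjusted p = 0.114).

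GCLC and GCLM, the catalytic and modifier subunits of glutamate-cysteine ligase, which makes the rate-limiting step of glutathione synthesis, did not keep step in H1944. GCLC had 54.3, 47.4, 50.9, 46.8 and 56.6 CPM in A549 TGF-β1 libraries against 178, 172 and 178 CPM in naive A549, and 45.4 to 60.7 CPM (median 57.8) in H1944 TGF-β1 libraries against 70.2, 73.6 and 74.5 CPM in naive H1944. TGF-β1 libraries lay below naive ones in both lines, by much less in H1944. Its change was -1.94 ± 0.21 (SE, adjusted p = 1.17e-06) in A549 and -0.34 ± 0.10 (SE, adjusted p = 0.00534) in H1944, which differed by 1.46 ± 0.22 (SE, adjusted p = 8.88e-06), and the H1944 call was lost in the low gate alone (-0.24, adjusted p = 0.103). GCLM fell, with log2 fold changes of -1.33 ± 0.22 in A549 and -1.06 ± 0.08 in H1944 (adjusted p = 0.000194 and 5.4e-14), and the lines did not differ past the test for it (0.12 ± 0.22 (SE, adjusted p = 0.791)). Under GSK126 in H1944, GCLC rose by 0.58 ± 0.10 (SE, adjusted p = 1.43e-05) and GCLM changed by 0.16 ± 0.08 (SE, adjusted p = 0.101), which did not pass. GSR, which reduces oxidised glutathione, fell under TGF-β1, with log2 fold changes of -2.04 ± 0.22 in A549 and -1.01 ± 0.08 in H1944 (adjusted p = 1.23e-06 and 1.26e-13).

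Of the 4 thioredoxin genes, 3 fell under TGF-β1 in each line. TXNRD1, thioredoxin reductase, fell, with log2 fold changes of -1.36 ± 0.23 in A549 and -0.75 ± 0.08 in H1944 (adjusted p = 0.000206 and 2.1e-10). TXN, its substrate, fell, with log2 fold changes of -1.46 ± 0.27 and -0.94 ± 0.09 (adjusted p = 0.000564 and 1.39e-10). SRXN1, which repairs oxidised peroxiredoxins, fell, with log2 fold changes of -1.60 ± 0.41 and -0.94 ± 0.17 (adjusted p = 0.00874 and 1.29e-05), but AL121758.1 on the same strand covers 85.0% of its exonic bases, its A549 TGF-β1 libraries held only 1.55 to 3.25 CPM (median 2.604), and the A549 call was lost in 3 of 13 leave-one-out fits. PRDX1, a peroxiredoxin, did not pass under TGF-β1 in A549 (-0.62 ± 0.26 (SE, adjusted p = 0.122)) or in H1944 (0.04 ± 0.08 (SE, adjusted p = 0.682)). Under GSK126 only TXN in H1944 passed among these 4 (-0.52 ± 0.09 (SE, adjusted p = 2.2e-05)).

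Among the 4 genes of NADPH supply, the oxidative enzyme of the pentose phosphate pathway fell under both agents in both lines. PGD, 6-phosphogluconate dehydrogenase, had 432, 335, 440, 468 and 459 CPM in A549 TGF-β1 libraries and 642, 838, 687, 731 and 794 CPM in GSK126 libraries, against 1200, 1253 and 1237 CPM in naive A549. H1944 libraries held 152 to 202 CPM (median 176) under TGF-β1 and 598 to 729 CPM (median 649.9) under GSK126, against 905, 1020 and 942 CPM in naive cells. The arms formed 3 separate bands in both lines, TGF-β1 lowest. Under TGF-β1 the change was -1.68 ± 0.22 (SE, adjusted p = 1.61e-05) in A549 and -2.37 ± 0.08 (SE, adjusted p = 2.71e-23) in H1944, a difference (H1944 minus A549) of -0.85 ± 0.21 (adjusted p = 0.00288). Under GSK126 it was -0.82 ± 0.22 (SE, adjusted p = 0.0307) in A549, lost in 7 of 13 leave-one-out fits, and -0.66 ± 0.08 (SE, adjusted p = 1.62e-08) in H1944. TKT, transketolase, fell under TGF-β1, with log2 fold changes of -1.16 ± 0.23 in A549 and -1.29 ± 0.08 in H1944 (adjusted p = 0.000913 and 2.57e-16). TALDO1, transaldolase, fell in A549, with a log2 fold change of -1.13 ± 0.24 (adjusted p = 0.0022), and did not pass in H1944 (0.07 ± 0.09 (SE, adjusted p = 0.515)), and the lines differed (1.04 ± 0.24 (SE, adjusted p = 0.00174)). ME1, cytosolic malic enzyme, passed in neither line under either agent, with TGF-β1 values of -0.53 ± 0.22 (SE, adjusted p = 0.109) in A549 and 0.14 ± 0.07 (SE, adjusted p = 0.0919) in H1944.

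Of the haem and iron genes, HMOX1 rose and FTL fell under TGF-β1 in both lines. HMOX1 (chromosome 22, 35380361 to 35394214, plus strand), which degrades haem, had 57.9, 34.8, 45.2, 68.6 and 45.4 CPM in A549 TGF-β1 libraries and 44.7, 58.7, 37.8, 34.8 and 55.3 CPM in GSK126 libraries, against 5.80, 5.64 and 6.86 CPM in naive A549. Every treated library lay above every naive one, and the 2 treatments overlapped. It rose by 2.92 ± 0.30 (SE, adjusted p = 7.65e-07) under TGF-β1 and 2.87 ± 0.30 (SE, adjusted p = 6.94e-06) under GSK126 on the log2 scale. H1944 cells had 36.2 to 60.7 CPM (median 48.9) under TGF-β1 and 19.1 to 43.3 CPM (median 34.3) under GSK126, against 34.9, 20.4 and 23.5 CPM in naive cells. TGF-β1 libraries lay above naive ones. Under GSK126 the high gate (40.4 to 43.3 CPM) lay above every naive library and the low gate (19.1 to 28.2 CPM) overlapped them. The changes were 0.97 ± 0.14 (SE, adjusted p = 4.53e-07) under TGF-β1 and, as the mean of both gates, 0.13 ± 0.14 (SE, adjusted p = 0.514) under GSK126. Both effects were smaller in H1944, the difference being -2.11 ± 0.32 for TGF-β1 and -2.79 ± 0.32 for GSK126 (adjusted p = 7.77e-06 and 2.76e-07). FTL, the ferritin light chain, fell under TGF-β1, with log2 fold changes of -1.94 ± 0.25 in A549 and -1.79 ± 0.08 in H1944 (adjusted p = 1.18e-05 and 1.21e-19). FTH1, the heavy chain that forms the same shell, did not pass in A549 (-0.27 ± 0.24 (SE, adjusted p = 0.588)) and rose in H1944 (0.35 ± 0.07 (SE, adjusted p = 2.73e-05)). The H1944 call was lost without the filter (0.22, adjusted p = 0.0611) and with all 28 libraries in 1 fit (0.25, adjusted p = 0.179), and BEST1 overlaps 62.4% of its exonic bases on the opposite strand. Under GSK126 in H1944, FTL fell, with a log2 fold change of -0.31 ± 0.08 (adjusted p = 0.0029), and FTH1 rose by 0.30 ± 0.07 (adjusted p = 0.000496). Both calls were lost with all 28 libraries in 1 fit (-0.36, adjusted p = 0.13 for FTL and 0.25, adjusted p = 0.27 for FTH1), that of FTL in the high gate alone (-0.19, adjusted p = 0.123) and that of FTH1 in the low gate alone (0.19, adjusted p = 0.0605).

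**Figure D4:**
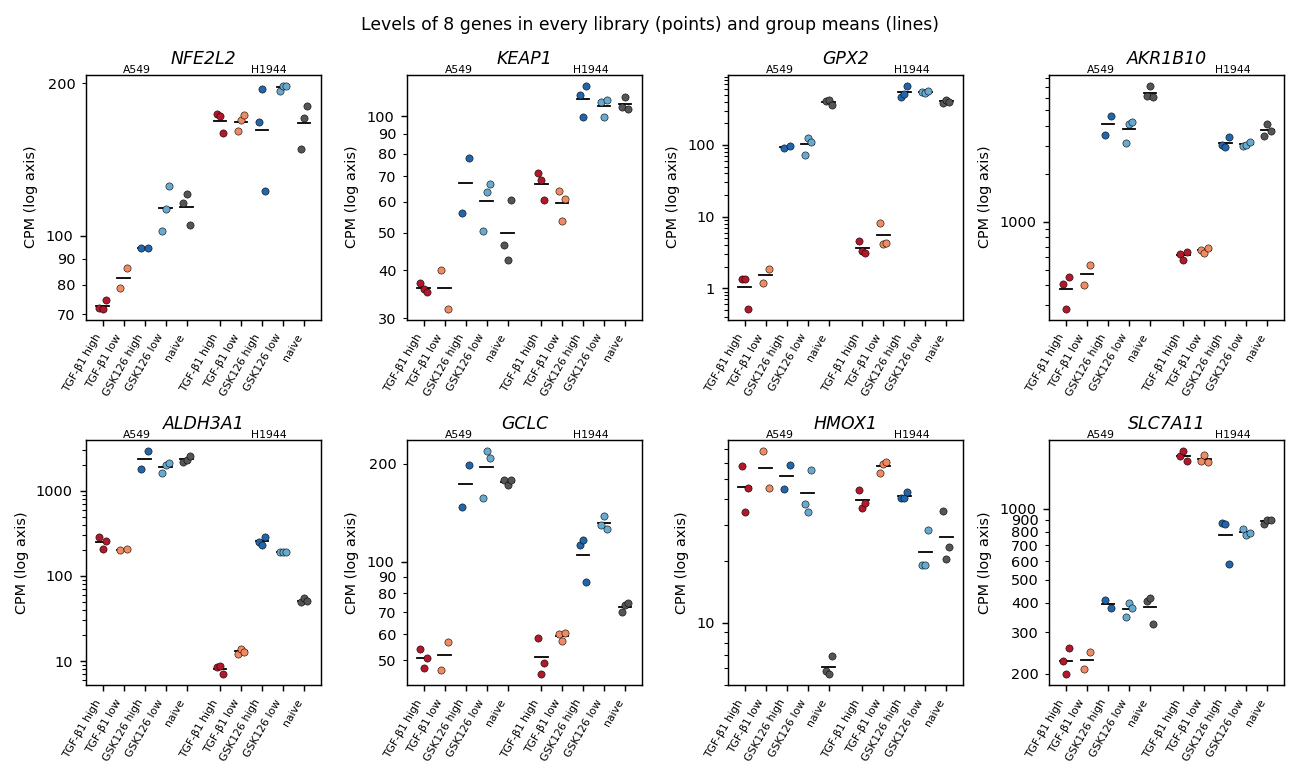
CPM on a log axis for 8 genes in every library (points) with group means (lines), A549 at the left and H1944 at the right of each panel, TGF-β1, GSK126 and naive from left to right. HMOX1 in A549 lies at 34.8 to 68.6 CPM under either agent against 5.64 to 6.86 CPM in naive cells, and SLC7A11 under TGF-β1 lies below naive A549 and above naive H1944.

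Of the 3 exporters, ABCC2 (MRP2) fell most. It fell under TGF-β1, with log2 fold changes of -1.68 ± 0.19 in A549 and -1.66 ± 0.07 in H1944 (adjusted p = 3.06e-06 and 4.4e-20). ABCC1 (MRP1) fell, with log2 fold changes of -0.86 ± 0.22 and -0.66 ± 0.08 (adjusted p = 0.00957 and 3.79e-09), the A549 call being lost without naive C (-0.72, adjusted p = 0.0601). ABCC3 (MRP3) did not pass in A549 (-0.37 ± 0.20 (SE, adjusted p = 0.255)) and fell in H1944 (-0.54 ± 0.08 (SE, adjusted p = 2.37e-07)).

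All 6 remaining targets fell under TGF-β1 in both lines. CYP4F11, a fatty acid and vitamin K hydroxylase, had 7.99, 4.88, 5.65, 4.56 and 3.74 CPM in A549 TGF-β1 libraries and 56.5, 77.3, 59.4, 73.0 and 77.3 CPM in GSK126 libraries, against 112, 95.0 and 109.9 CPM in naive A549. The H1944 levels were 56.2 to 83.1 CPM (median 77.8) under TGF-β1 and 239 to 268 CPM (median 249.8) under GSK126, against 317, 352 and 335 CPM in naive cells. No arms overlapped. The TGF-β1 change was -4.55 ± 0.23 (SE, adjusted p = 2.15e-10) in A549 and -2.13 ± 0.09 (SE, adjusted p = 4.7e-20) in H1944, a larger fall in A549 by 2.28 ± 0.23 (adjusted p = 5.47e-09). The GSK126 change was -0.69 ± 0.20 (SE, adjusted p = 0.0466) in A549, lost in 7 of 13 leave-one-out fits, and -0.54 ± 0.09 (SE, adjusted p = 6.08e-06) in H1944. CYP4F3, a neighbour with 88.95% identical coding bases, also had fewer counts under TGF-β1 (99 in 5 A549 libraries against 987 in 3 naive ones, and 460 in 6 H1944 libraries against 3557 in 3 naive ones).

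NR0B1 (DAX-1), an orphan nuclear receptor that acts as a corepressor, had 3.33, 2.88, 3.56, 3.26 and 4.21 CPM in A549 TGF-β1 libraries and 32.8, 37.4, 24.2, 30.8 and 31.9 CPM in GSK126 libraries, against 56.4, 64.3 and 56.6 CPM in naive A549. Its levels in H1944 were 0.305 to 2.27 CPM (median 1.39) under TGF-β1 and 14.4 to 20 CPM (median 15.5) under GSK126, against 44.6, 58.6 and 44.5 CPM in naive cells. The 3 arms were separate in both lines. The changes were -4.25 ± 0.22 (SE, adjusted p = 2.72e-10) in A549 and -5.20 ± 0.25 (SE, adjusted p = 8.83e-19) in H1944 under TGF-β1, and -0.98 ± 0.20 (SE, adjusted p = 0.00386) and -1.67 ± 0.16 (SE, adjusted p = 1.31e-10) under GSK126. The A549 call under GSK126 was lost in the high gate alone (-0.74, adjusted p = 0.123). The 6 H1944 TGF-β1 libraries held 18 counts in all against 838 in the 3 naive ones.

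OSGIN1, a growth inhibitor induced by oxidative stress, had 5.33, 6.87, 3.87, 5.08 and 2.81 CPM in A549 TGF-β1 libraries and 41.6, 70.4, 42.2, 56.1 and 52.2 CPM in GSK126 libraries, against 40.0, 40.4 and 46.8 CPM in naive A549. H1944 libraries held 24.9 to 35.5 CPM (median 26.5) under TGF-β1 and 59.4 to 93.9 CPM (median 64.9) under GSK126, against 70.6, 79.0 and 76.8 CPM in naive cells. TGF-β1 separated from naive in both lines and GSK126 in neither. The TGF-β1 changes were -3.40 ± 0.25 (SE, adjusted p = 1.08e-08) and -1.34 ± 0.12 (SE, adjusted p = 1.95e-11), and they differed by 1.91 ± 0.27 (SE, H1944 minus A549, adjusted p = 2.34e-06). PIR, pirin, an iron-binding nuclear protein, had 14.7, 16.2, 17.3, 17.8 and 29.02 CPM in A549 TGF-β1 libraries and 63.0, 57.0, 60.2, 76.0 and 72.5 CPM in GSK126 libraries, against 84.3, 120.2 and 96.5 CPM in naive A549. Its H1944 bands were 55.7 to 81.0 CPM (median 66.0) under TGF-β1, 104 to 119.5 CPM (median 115) under GSK126, and 169.8, 159.7 and 169.6 CPM in naive cells. All treated libraries lay below the naive ones. The changes were -2.57 ± 0.23 (SE, adjusted p = 1.23e-07) in A549 and -1.23 ± 0.09 (SE, adjusted p = 3.94e-14) in H1944 under TGF-β1. Under GSK126 they were -0.74 ± 0.22 (SE, adjusted p = 0.0549) in A549, which did not pass, and -0.68 ± 0.08 (SE, adjusted p = 4.98e-08) in H1944.

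EPHX1, microsomal epoxide hydrolase, went opposite ways under the 2 agents in H1944, as ALDH3A1 did. It had 75.9 to 85.6 CPM (median 81.9) in H1944 TGF-β1 libraries and 278 to 350.5 CPM (median 293) in GSK126 libraries, against 135, 139 and 119 CPM in naive H1944. The 3 arms did not overlap, and the changes were -0.60 ± 0.09 (SE, adjusted p = 5.33e-07) and 1.08 ± 0.09 (SE, adjusted p = 3.82e-12). In A549 it stood at 78.9, 80.9, 78.8, 99.4 and 83.2 CPM under TGF-β1 and 132, 165, 115, 134 and 127 CPM under GSK126, against 151, 165 and 181 CPM in naive A549. It fell under TGF-β1 there (-1.14 ± 0.20 (SE, adjusted p = 0.000306)) and did not pass under GSK126 (-0.37 ± 0.20 (SE, adjusted p = 0.362)). UGDH, which makes UDP-glucuronate, fell under TGF-β1, with log2 fold changes of -1.06 ± 0.22 in A549 and -0.79 ± 0.07 in H1944 (adjusted p = 0.00163 and 5.04e-12).

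Set directly against GSK126, TGF-β1 gave lower levels of most targets. In A549, 28 of 34 targets were lower and 0 higher in TGF-β1 than in GSK126 cells, where 11.4% of all genes were lower and 7.93% higher, with a median log2 fold change of -1.10 for the targets beside 0.19 for all genes. In H1944, 27 of 35 were lower and 5 higher, where 32.1% were lower and 31.6% higher, with medians of -0.92 and -0.01. GPX2 differed by -6.46 ± 0.28 (SE, adjusted p = 6.84e-11) in A549 and -6.68 ± 0.13 (SE, adjusted p = 6.46e-30) in H1944. The 5 that were higher in H1944 were SLC7A11, GSTM3, HMOX1, PRDX1 and ME1, the last 2 by 0.15 ± 0.06 and 0.14 ± 0.06 (adjusted p = 0.0381 and 0.039), calls lost in 9 and 12 of the 15 fits that left out a library. These last 2 rises appear only with the TMM scaling of the fits. In mean CPM both were lower under TGF-β1 than under GSK126, PRDX1 at 586 against 599 and ME1 at 296 against 305. HMOX1, at like levels under both agents in A549 (0.04 ± 0.22 (SE, adjusted p = 0.907)), was higher under TGF-β1 in H1944 (0.84 ± 0.12 (SE, adjusted p = 1.42e-07)). In the H1944 high gates alone neither HMOX1 (0.12, adjusted p = 0.545) nor GSTM3 (0.39, adjusted p = 0.0883) passed. The A549 count of listed genes, 30 with the regulators, was 19 without GSK126 high B and 14 in the low gates alone.

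The reporter gates separated few of these genes, and outside the H1944 GSK126 gates few or no genes of any kind passed. Between the TGF-β1 gates no target passed in either line, where 0% of genes were higher and 0% lower in the high gate of A549, and 0.0147% higher and 0.044% lower in that of H1944. At an unadjusted p under 0.05, 197 genes and 0 members differed in A549 and 701 genes and 2 members in H1944; DESeq2 passed 17 and 12 genes and limma-voom 1393 and 13, none of them listed genes. Between the A549 GSK126 gates 0% of genes were higher and 0% lower, 986 genes but 0 members had an unadjusted p under 0.05, and DESeq2 and limma-voom passed 0.

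Between the H1944 GSK126 gates 4 targets were higher and 1 lower in the high gate, where 3.62% of genes were higher and 3.31% lower. HMOX1 had 40.7, 40.4 and 43.3 CPM in the high gate against 19.1, 19.1 and 28.2 CPM in the low gate, without overlap (0.91 ± 0.17 (SE, adjusted p = 0.000701)). GSTM3 had 21.8, 24.5 and 18.3 CPM in the high gate against 8.93, 10.6 and 9.21 CPM in the low gate (1.18 ± 0.21 (SE, adjusted p = 0.000427)). ALDH3A1 had 249, 232 and 285 CPM in the high gate against 191, 189.5 and 190.4 CPM in the low gate (0.42 ± 0.09 (SE, adjusted p = 0.00466)). All 3 genes were thus higher in the gate of brighter reporter under GSK126, with no overlap between the gates. Under TGF-β1 in H1944 none of the 3 passed, and HMOX1 and ALDH3A1 lay the other way without overlap. There HMOX1 had 36.2 to 44.4 CPM in the high gate against 53.5 to 60.7 CPM in the low gate. ALDH3A1 had 7.07 to 8.745 CPM against 12.22 to 13.85 CPM, while GSTM3 overlapped (20.8 to 27.9 CPM against 18.1 to 28.1 CPM). TALDO1 had 239.6, 222 and 240.2 CPM in the high gate against 184, 176 and 189 CPM in the low gate (0.36 ± 0.10 (SE, adjusted p = 0.0242)), a call lost in 9 of 15 leave-one-out fits. GSTA1 went the other way, with 12.8, 15.6 and 10.1 CPM in the high gate against 30.9, 30.4 and 28.5 CPM in the low gate (-1.20 ± 0.23 (SE, adjusted p = 0.00133)). Mesenchymal markers summed to 907 to 1022 CPM in this high gate against 592 to 650.7 CPM in the low gate, and their part in these differences was not tested. Same-letter gates were taken to pair here on weak correlations, and with the replicate block the same 5 listed genes passed. With all 28 libraries in 1 fit 1 listed gene passed.

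**Figure D5:**
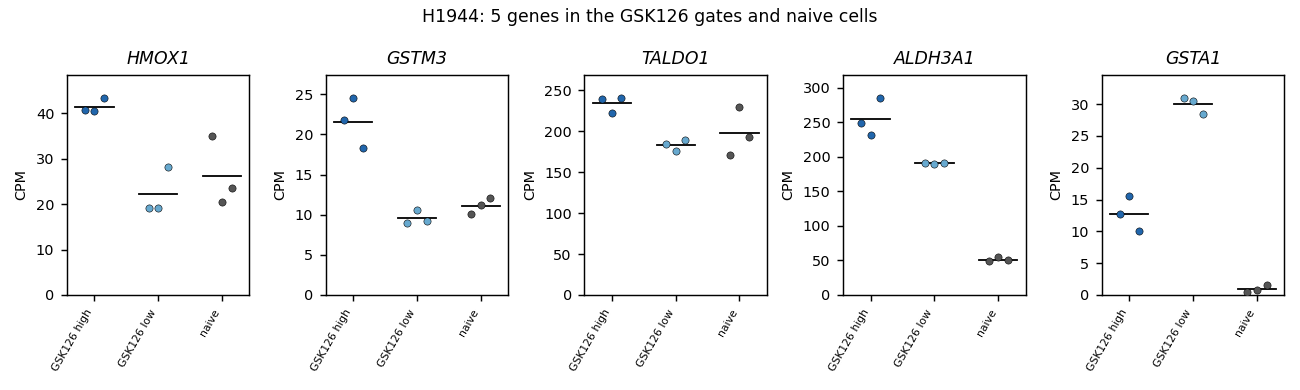
CPM of the 5 listed genes that differed between the H1944 GSK126 gates, in the high gate, the low gate and naive cells (points are libraries, lines are means). HMOX1, GSTM3, TALDO1 and ALDH3A1 are higher and GSTA1 lower in the high gate, with no overlap of the 2 gates.

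The lines themselves were compared by the difference of their responses. These differences, here and above, come from a joint fit and need not equal the gap between the effects fitted in each line alone. The TGF-β1 effect was higher in H1944 than in A549 for 11 of 35 targets and lower for 3, where 10.5% of all genes were higher and 9.48% lower. Higher here mostly meant a smaller fall, as for CYP4F11, GPX2 and OSGIN1, and for SLC7A11 and CBR3 a rise in H1944 beside a fall in A549. The 3 lower ones were HMOX1, PGD and NR0B1, the last lost in 13 of 28 leave-one-out fits (-1.121 ± 0.40 (SE, adjusted p = 0.0468)). NFE2L2 was higher as well (0.65 ± 0.20 (SE, adjusted p = 0.0212)), a call lost without H1944 naive A (0.57, adjusted p = 0.0799), in the low gates alone (0.58, adjusted p = 0.127) and with the filter at 1 CPM (0.61, adjusted p = 0.17). That of ALDH3A1 was lost in the high gates alone (0.61, adjusted p = 0.223). The GSK126 effect was higher for 5 targets and lower for 1, where 6.18% of genes were higher and 3.73% lower. GSTA1 (4.65 ± 0.99 (SE, adjusted p = 0.00172)), CBR3 (2.57 ± 0.39 (SE, adjusted p = 2.03e-05)) and EPHX1 (1.40 ± 0.18 (SE, adjusted p = 2.46e-06)) were among the 5, all rising in H1944. All 6 calls of the GSK126 difference passed as each library was left out.

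Naive H1944 and A549 differed in the targets before any agent. Of 35 targets, 15 were higher and 7 lower in naive H1944, where 23.9% of all genes were higher and 22.9% lower, and both regulators were higher (0.58 ± 0.16 (SE, adjusted p = 0.00402) for NFE2L2 and 1.14 ± 0.17 (SE, adjusted p = 1.83e-06) for KEAP1). Without the filter on low counts NFE2L2 did not pass (0.43, adjusted p = 0.11). ALDH3A1 was lower, at -5.50 ± 0.22 (adjusted p = 1.9e-18), as was CBR3, at -2.03 ± 0.32 (adjusted p = 5.89e-06), both genes that rose under GSK126 in H1944. HMOX1 was higher by 2.12 ± 0.27 (SE, adjusted p = 1.36e-07), SRXN1 by 2.03 ± 0.27 (SE, adjusted p = 3.38e-07) and CYP4F11 by 1.703 ± 0.16 (SE, adjusted p = 5.7e-10). GPX2 did not differ past the test (0.05 ± 0.18 (SE, adjusted p = 0.836)). Line and batch cannot be told apart in this comparison.

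Transcripts of 15 partners and regulators of NRF2 were tested as well. Under TGF-β1 1 rose and 1 fell in A549, beside 7.67% and 11.4% of all genes, and 5 rose and 1 fell in H1944, beside 32.1% and 31.6%. Under GSK126 1 rose and 0 fell in A549, beside 3.57% and 3.2% of all genes, and 4 rose and 3 fell in H1944, beside 21.5% and 18.7%. The H1944 counts were thus near the share over all genes, or below it for the falls under TGF-β1. SQSTM1 (p62), which sequesters KEAP1, fell under TGF-β1, with log2 fold changes of -1.16 ± 0.26 in A549 and -0.32 ± 0.08 in H1944 (adjusted p = 0.00378 and 0.000451). GSK3B, a kinase that primes NRF2 for degradation, rose by 0.55 ± 0.19 and 1.21 ± 0.10 (adjusted p = 0.0468 and 7.02e-13). NFE2L1 and CREBBP also rose under TGF-β1 and passed only in H1944, at 0.59 ± 0.09 and 0.35 ± 0.08 (adjusted p = 1.17e-06 and 0.00034). The spread between libraries was larger in A549. NFE2L3, a relative of NRF2, rose under GSK126 by 2.40 ± 0.24 in A549 and 0.66 ± 0.18 in H1944 (adjusted p = 3.61e-06 and 0.00327). MAFK, a small MAF partner, and BACH1, a repressor of the same elements, fell under GSK126 in H1944, with log2 fold changes of -0.67 ± 0.08 and -0.52 ± 0.09 (adjusted p = 1.58e-08 and 8.24e-06).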

How the data were processed

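Gene counts from the 28 libraries were used as deposited. Per the labels' protocols, libraries came from a stranded pico-input total RNA kit. Per the submitters' processing notes, bcl2fastq 2.20.0, STAR 2.6.0c, HTSeq 0.12.3 and the build GRCh38 were used. The annotation release, strand setting, and treatment of duplicate and multi-mapping reads are not given in the sources used here. Such choices could move reads between near-identical or overlapping genes.

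The members and lists were chosen with earlier results of these data known. The table held 60487 rows, 4 of them reporter rows, and 56321 identifiers matched a symbol. Of 75 entries of the accompanying lists, 74 matched. Reporter rows were kept in the fits and left out of counts of genes. Levels are CPM, the deposited count scaled to a library's total, which ran from 1660148 to 13280592 and limits the precision of scarce genes such as GSTA1. Fold changes use TMM scaling instead, so a small one can differ in sign from the CPM.

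Each line was fitted on its own with edgeR 4.0.16 (R 4.3.3, limma 3.58.1) over its 5 groups, with filterByExpr, TMM scaling and the quasi-likelihood test. A treatment effect was the mean of both gates minus naive. Line differences came from a joint fit of 28 libraries. P-values were adjusted over all genes tested by the Benjamini-Hochberg method at 0.05. Genes given in every library were the 8 with the largest passing change in each treated-against-naive comparison and a mean of at least 2 CPM, plus NFE2L2 and KEAP1. Others were described by role. The procedure was tested on simulated data. Alternatives were RLE scaling, other filters, DESeq2 1.42.0, limma-voom with sample weights, a replicate block, each gate alone, the compared groups alone, all 28 libraries in 1 fit, and leaving out each library in turn. Leaving out both libraries rich in background reads was planned from an earlier analysis of these data. Letters were taken to pair libraries only where 3 or more same-letter pairs were at hand and their deviations all correlated above 0.1. Only the H1944 GSK126 gates met this rule, narrowly (r = 0.101 to 0.143 over 3 pairs). The H1944 low gates of the 2 treatments gave r = 0.0439 to 0.178, the same letter correlating best in all 3 pairs. Gates that share a culture would not be independent libraries, and the main fits against naive cells did not model this. The A549 TGF-β1 gates share only 2 letters, with r = 0.103 and 0.411, and were therefore not taken as paired.

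Overlaps of exons came from the GRCh38 annotation supplied for this work, and promoter sequences are those of RefSeq (GRCh38.p14). Exact 95% intervals for scarce counts cover counting error only.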

Additional observations from a re-analysis of the deposited data

Results flagged for a closer look

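The responses below are those for which the 2 lines differed by a test of the difference itself, an interaction term in edgeR's quasi-likelihood fit with Benjamini-Hochberg adjustment. Each value is the log2 effect in H1944 minus that in A549 ± SE, both from 1 joint fit of the 28 libraries. It need not equal the difference of the effects given above, which come from a separate fit of each line. The TGF-β1 effect was higher in H1944 for CYP4F11 (2.28 ± 0.23, adjusted p = 5.46e-09), GPX2 (2.05 ± 0.36, adjusted p = 7.54e-05), OSGIN1 (1.91 ± 0.27, adjusted p = 2.34e-06), SLC7A11 (1.72 ± 0.22, adjusted p = 3.39e-07), CBR3 (1.71 ± 0.41, adjusted p = 0.00264) and AKR1B10 (1.46 ± 0.24, adjusted p = 2.04e-05). It was also higher there for GCLC (1.46 ± 0.22, adjusted p = 8.88e-06), PIR (1.17 ± 0.23, adjusted p = 0.000242), ALDH3A1 (1.14 ± 0.26, adjusted p = 0.00154), TALDO1 (1.04 ± 0.24, adjusted p = 0.00174), GSR (0.88 ± 0.21, adjusted p = 0.00231) and NFE2L2 (0.65 ± 0.20, adjusted p = 0.0212). It was lower in H1944 for HMOX1 (-2.11 ± 0.32, adjusted p = 7.77e-06), NR0B1 (-1.121 ± 0.40, adjusted p = 0.0468) and PGD (-0.85 ± 0.21, adjusted p = 0.00288).

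The GSK126 effect was higher in H1944 for GSTA1 (4.65 ± 0.99, adjusted p = 0.00172), CBR3 (2.57 ± 0.39, adjusted p = 2.03e-05), GPX2 (2.39 ± 0.23, adjusted p = 8.9e-09), ALDH3A1 (2.17 ± 0.23, adjusted p = 7.03e-08) and EPHX1 (1.40 ± 0.18, adjusted p = 2.46e-06), and lower for HMOX1 (-2.79 ± 0.32, adjusted p = 2.76e-07). For GSTA1 the A549 arm rests on 6 counts in 5 GSK126 libraries and 12 in 3 naive ones. The lines also differed in their naive levels of ALDH3A1, CBR3 and HMOX1, and the part of that difference in these values was not tested.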

How the results depend on the processing

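Over 12678 values of the listed genes under alternatives, 0 changed direction while called, 245 no longer passed and 240 newly passed. In A549 under TGF-β1, 25 of 31 calls passed under all alternatives, in H1944 30 of 33. Under GSK126 these were 2 of 8 in A549 and 16 of 23 in H1944, and between the H1944 GSK126 gates 1 of 5. The cause of the shifts that follow was not tested.

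All genes passing in A549 GSK126 against naive cells numbered 1344, and the alternatives gave 2281 with DESeq2, 3396 with limma-voom (1370 higher and 2026 lower, beside 709 and 635), 852 in the low gate alone, 2212 in the compared groups alone, 2840 with all 28 libraries, and 2648 without the 2 background-rich libraries. The 8 listed genes were then 14 with DESeq2, 19 with limma-voom, 13 in the compared groups alone, 16 with all 28 libraries, 15 without the background-rich libraries, 5 with no filter, 5 with the replicate block and 3 in the high gate alone. Leaving out single libraries gave 627 (without GSK126 high B) to 2040 genes and 3 to 11 listed genes.

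For A549 TGF-β1 against GSK126, 3838 genes became 6054 with limma-voom, 1413 in the low gate alone and 5799 with all 28 libraries, and 30 listed genes became 19 with no filter and 14 in the low gate alone. Leaving out single libraries gave 2100 to 4788 genes and 19 to 31 listed genes, the lowest without GSK126 high B. For A549 TGF-β1 against naive cells, 3775 genes became 7921 with limma-voom and 2383 in the low gate alone. For H1944 GSK126 against naive cells, 5475 became 3491 with all 28 libraries.

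Between A549 TGF-β1 gates, 0 genes became 3 with no filter, 17 with DESeq2, 1393 with limma-voom, 11 with all 28 libraries and 53 without the background-rich libraries, and 0 to 6 with a library left out. Between A549 GSK126 gates, 0 became 16 with no filter and 18 in the compared groups alone. Between H1944 TGF-β1 gates, 8 became 13 with no filter, 3 with the filter at 1 CPM, 13 with limma-voom, 26 in the compared groups alone and 0 with all 28 libraries, and 0 to 12 with a library left out. Between H1944 GSK126 gates, 944 genes became 570 with no filter, 510 with the filter at 1 CPM, 428 in the compared groups alone and 53 with all 28 libraries (45 higher and 8 lower, beside 493 and 451). The 5 listed genes became 3 under either filter, 8 with limma-voom and 1 with all 28 libraries. Leaving out single libraries gave 308 (without low B) to 1374 genes and 4 to 9 listed genes (the most without high B).

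For the difference of TGF-β1 effects, 3588 genes became 6126 with limma-voom and 15 listed genes 23 with DESeq2. For that of GSK126 effects, 1775 became 2883 with limma-voom and 1162 in the low gate alone, and 6 listed genes 11 without the background-rich libraries. The replicate block gave 949 genes for A549 GSK126 against naive cells. It gave 937 for the H1944 GSK126 gates, where letters were taken to pair, and changed no call of a listed gene there.

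Depth limits SRXN1, GSTA1 and, in TGF-β1 cells, GPX2 in A549 and NR0B1, GPX2 and GSTA1 in H1944 TGF-β1 cells, which rest on few counts.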

Other observations

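Genes of antioxidant defence outside the list fell as well under TGF-β1. Of 40 such genes tested, 21 fell and 1 rose in A549, where 11.4% of all genes fell, and 25 fell and 6 rose in H1944, where 31.6% fell. The median log2 fold change of this list was -0.79 in A549 and -0.67 in H1944. ABCG2, a drug exporter, fell, with a log2 fold change of -3.84 ± 0.24 in A549 (edgeR, adjusted p = 2.53e-09). BLVRB, a flavin and biliverdin reductase, fell, with log2 fold changes of -2.31 ± 0.24 in A549 and -2.37 ± 0.11 in H1944 (edgeR, adjusted p = 7.31e-07 and 5.14e-19). GLRX, glutaredoxin, fell, with log2 fold changes of -2.09 ± 0.29 in A549 and -3.79 ± 0.10 in H1944 (edgeR, adjusted p = 2.71e-05 and 3.47e-26). CAT, catalase, fell, with a log2 fold change of -2.94 ± 0.12 in H1944 (edgeR, adjusted p = 2.38e-21). Under GSK126 3 of 40 fell and 0 rose in A549, beside 3.2% and 3.57% of all genes, ALDH1A1 with a log2 fold change of -1.58 ± 0.23 (edgeR, adjusted p = 0.000202), and 17 fell and 10 rose in H1944, beside 18.7% and 21.5%.

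SLC7A11 is also a target of the amino acid stress factor ATF4, and a list of 18 genes, ATF4 itself and other targets of it, was read beside it. Under TGF-β1 6 fell and 1 rose in A549, beside 11.4% and 7.67% of all genes, and 11 fell and 2 rose in H1944, beside 31.6% and 32.1%. Under GSK126 0 fell and 1 rose in A549, beside 3.2% and 3.57% of all genes, and 13 fell and 2 rose in H1944, beside 18.7% and 21.5%. ASNS, asparagine synthetase, fell, with a log2 fold change of -1.01 ± 0.21 in A549 under TGF-β1 and of -1.121 ± 0.10 in H1944 under GSK126 (edgeR, adjusted p = 0.00206 and 2.18e-11). STC2, a secreted glycoprotein, rose in H1944 by 3.59 ± 0.20 under TGF-β1 and 1.75 ± 0.20 under GSK126 (edgeR, adjusted p = 2.2e-17 and 7.13e-09). In A549 it rose under GSK126 by 2.22 ± 0.21 (edgeR, adjusted p = 2.34e-06). ATF3 also rose in H1944 under TGF-β1, by 1.06 ± 0.11 (edgeR, adjusted p = 3.07e-10). CEBPB and DDIT4 were among the 11 that fell there, at -1.57 ± 0.09 and -1.30 ± 0.12 (edgeR, adjusted p = 3.39e-16 and 8.44e-12).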
